A study of Homo sapiens with 6 samples.

Results

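The kinetochore, spindle checkpoint and mitotic kinase genes are a list of 60 human genes chosen by name for their part in chromosome segregation. Each was represented by the probe set that carried its symbol alone and had the highest mean over the 6 arrays, which gave values for 58 of the 60 among 18836 distinct genes tested. The other two, the checkpoint kinase-like protein BUB1B and the inner kinetochore subunit CENPP, have probe sets annotated with several symbols and were not analysed here. All 58 measured members passed the filter on low signal, which took out the 25% of transcript clusters with the lowest mean. RNA came from OV2008, a human cancer line that the labels call ovarian, 3 days after transfection with a negative control microRNA (3 control arrays) or with a mimic of miR-328-3p (3 mimic arrays). A mimic is a synthetic duplex RNA that supplies extra copies of a microRNA to the cell. Untransfected cells were not analysed here. The descriptions of the mimic samples name the control microRNA, and their titles and source names were followed. The labels do not state whether samples of a group came from separate cultures. Each p-value therefore reflects sample-to-sample spread that may be technical.

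Sister chromatids are separated at mitosis by microtubules that attach to kinetochores, protein assemblies built on centromeres marked by the histone variant CENPA. An inner layer of CENP proteins holds the chromatin and an outer layer, made of the KNL1, MIS12 and NDC80 complexes, grips the microtubule. Kinetochores without attachment keep the spindle checkpoint active, which holds back CDC20 and the anaphase-promoting complex until every chromosome is attached. Aurora and Polo kinases correct faulty attachments and build the spindle. Most of these genes are transcribed late in the cell cycle under the DREAM complex, MYBL2 and FOXM1, so in a dividing line they are usually expressed together.

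The mimic's own sequence, from RefSeq on GRCh38.p14 (chr16:67202327-67202348, strand -), is shown because its seed, bases 2 to 8 in capitals, is the part that pairs with target mRNAs.
hsa-miR-328-3p: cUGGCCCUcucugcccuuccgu

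On the log2 scale of the table, array medians were 4.161 to 4.190 for control and 4.193 to 4.228 for mimic. Every mimic array thus had a slightly higher median than every control array, an offset that median centring removes. Correlations across tested transcript clusters were 0.9954 to 0.9969 within groups and 0.9921 to 0.9941 between groups. The epithelial markers EPCAM, KRT8, KRT18 and CDH1 had control means of 11.13 to 14.76 and the squamous markers KRT5, DSG3 and KRT14 of 17.03, 14.59 and 5.14, the last of them far dimmer than the others. The Müllerian and ovarian carcinoma markers PAX8, WT1, MUC16 and SOX17 lay at 3.41 to 4.33, near the array medians. The labelled ovarian origin was therefore without its defining markers. Markers of leukocytes and fibroblasts had control means of 3.25 to 4.30, and those of endothelium 2.93 to 5.48. Some of these markers moved with the mimic: the summed level was 51.9 to 52.2 on control and 53.2 to 53.5 on mimic arrays for the 4 epithelial markers, 36.7 to 36.8 and 36.1 to 36.3 for the 3 measured of 4 squamous markers, 10.6 to 10.8 and 11.1 to 11.2 for the 3 leukocyte markers and 11.9 to 12.2 and 11.4 to 11.6 for the 3 endothelial markers. The squamous sum fell through DSG3 (log2 change -0.88, adjusted p = 8.6e-05), while KRT5 stood at -0.03 and KRT14 at 0.31 (adjusted p = 0.752 and 0.0555). The endothelial sum fell through CDH5 (log2 change -0.68, adjusted p = 0.00247), while mean levels on control and mimic arrays were 2.93 and 3.05 for PECAM1 and 3.64 and 3.67 for VWF. The summed ranges overlapped for the 4 Müllerian markers (15.8 to 16.0 and 15.9 to 16.2) and the 2 measured of 3 fibroblast markers (7.88 to 8.04 and 7.95 to 8.14). The part of these shifts in the results was not tested. Over all members, control array 2 was the lowest of its group for 37 of the 58, with a median deviation of -0.04 from the group means, against less than 0.01 in size over all genes on that array (-0.003).

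Higher and lower members were nearly balanced, and the median of the list lay at that of all genes. A gene's level is the log2 value it read on an array, and the value at which a gene stood is its log2 change, mimic mean minus control mean, with its standard error (SE). Each change was tested with limma, and adjusted p is the Benjamini-Hochberg value across all tested transcript clusters. Of the 58 measured members, 11 were higher and 8 lower in the mimic arrays, and 39 did not pass an adjusted p of 0.05. The median log2 change was 0.01 for the members and 0.01 for all genes tested, and the interquartile range of the members ran from -0.11 to 0.09 against -0.11 to 0.11 for all genes. The members called make 32.8% of those measured, beside 18.0% of all genes called in either direction, 7.21% higher and 10.8% lower. Calls are more frequent among genes of high signal: of the genes with a mean of at least 8, a limit chosen after the values were seen, 40.4% were called, and of the 52 members above that limit 34.6% were. The share of members called was thus near or below that of other genes of high signal. The genes with a mean of at least 8 had a median log2 change of -0.04, below that of the 58 members. Their interquartile range, -0.21 to 0.14, was wider than that of the members. Mimic and control arrays did not overlap for 32 members, or 55.2%, beside 41.6% of all genes. This share was not taken for the genes of high signal alone.

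**Figure D1:**
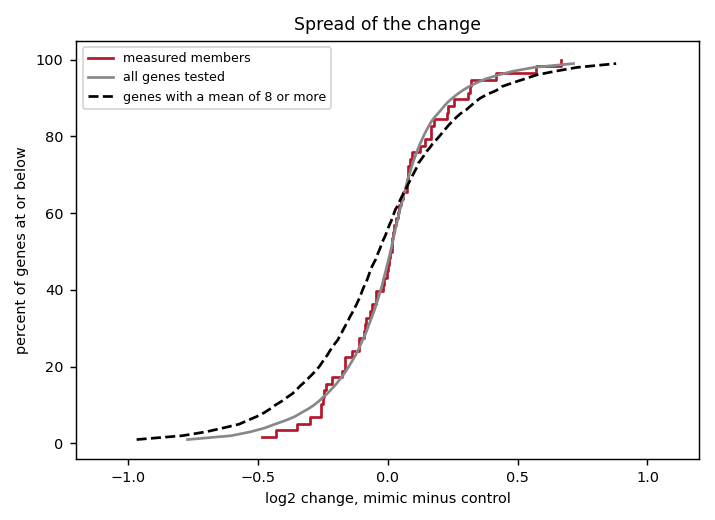
Percent of genes (vertical axis) at or below a given log2 change, mimic minus control (horizontal axis), for the 58 measured members, all 18836 genes tested and the genes with a mean of at least 8. The curves of the members and of all genes cross the middle near 0, and that of the genes with a mean of at least 8 at -0.04. No member lies beyond -0.49 or 0.67.

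Changes were small, from 1.12-fold to 1.59-fold among the members called. Only PLK1 passed 1.5-fold. Of the 19 called, 8 passed in every fit that left out 1 array: PLK1, AURKB, CENPQ, CENPU and NUF2, which were higher, and CDCA8, CENPC and DSN1, which were lower. The numbers higher and lower were 8 and 5 without control array 1, 6 and 8 without control array 2, 5 and 4 without control array 3, 5 and 4 without mimic array 1, 5 and 3 without mimic array 2 and 6 and 6 without mimic array 3. Of the members called, 57.9% were higher, but 41.2% after median centring and 47.1% after quantile normalization. Of all genes called, 40% were higher, with 32.7% after median centring and 41.4% after quantile normalization. In bulk RNA, fewer cells in mitosis and less RNA per cell cannot be told apart.

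**Figure D2:**
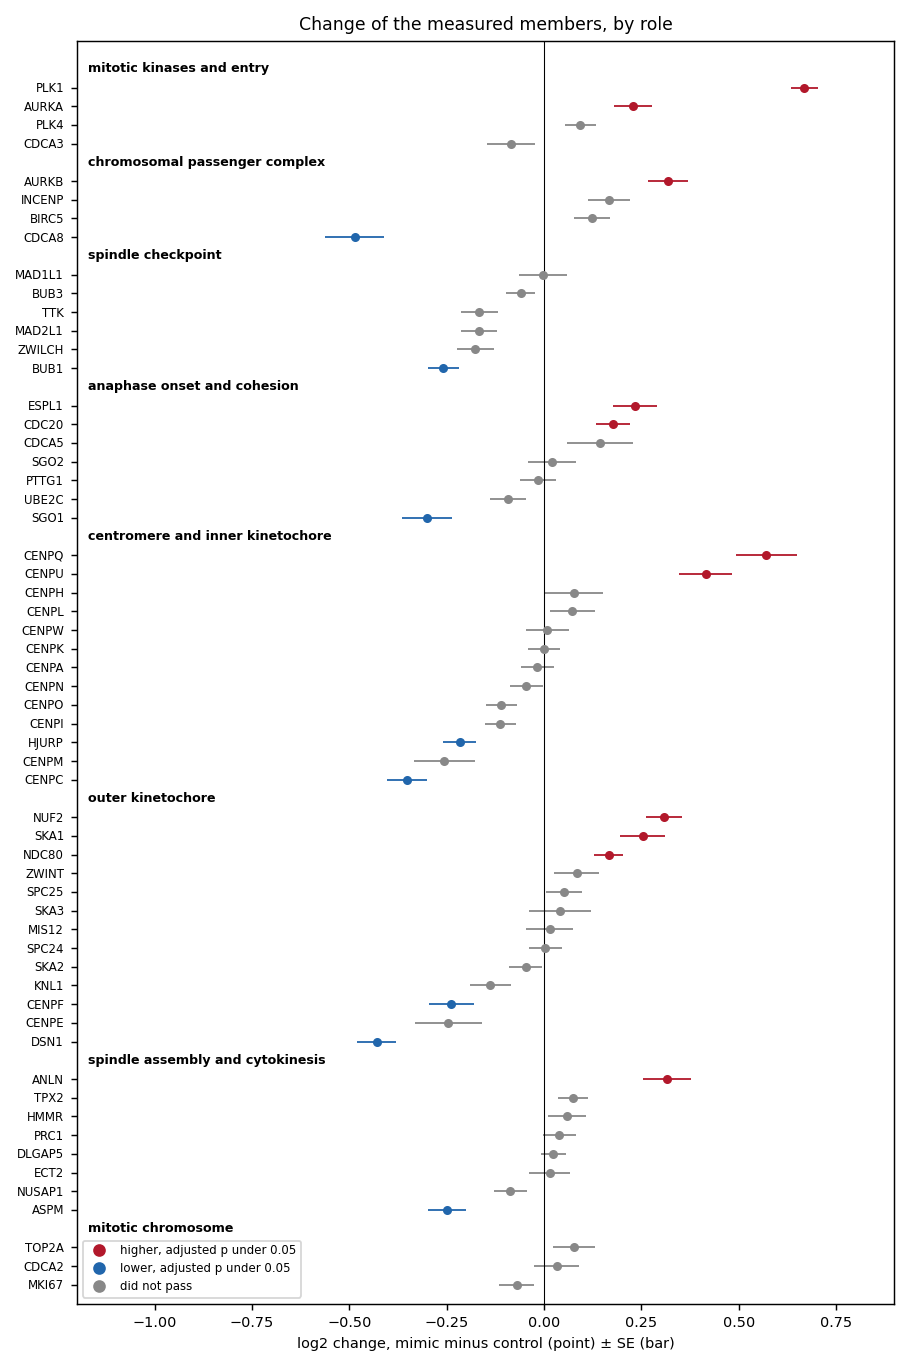
Log2 change, mimic minus control, with its standard error, for each of the 58 measured members in 8 role groups, 3 arrays per group. Points to the right of 0 are higher in the mimic arrays. PLK1 and CENPQ stand farthest to the right and CDCA8 and DSN1 farthest to the left, and all 6 measured checkpoint genes lie at or left of 0.

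Among the mitotic kinases and entry factors, PLK1 and AURKA rose. PLK1, the Polo kinase that drives mitotic entry, spindle assembly and checkpoint control, read 11.80, 11.83 and 11.83 on the control arrays and 12.50, 12.49 and 12.47 on the mimic arrays. The mimic arrays lay clearly above the control arrays, with little spread inside a group (log2 change 0.67 ± 0.0348 SE, 1.59-fold higher, adjusted p = 0.000201). AURKA, the kinase of spindle poles, read 13.09, 13.01 and 13.03 on the control arrays and 13.26, 13.34 and 13.21 on the mimic arrays. Its groups also lay apart (log2 change 0.23 ± 0.0491 SE, 1.17-fold higher, adjusted p = 0.0303), but leaving out control array 2 or 3 gave 0.0897 or 0.11 and leaving out mimic array 1 or 2 gave 0.0867 or 0.102 as adjusted p. PLK4, which starts centriole duplication, stood at 0.09 ± 0.041 SE (adjusted p = 0.228). CDCA3, an adaptor for the degradation of the kinase WEE1, stood at -0.08 ± 0.0616 SE (adjusted p = 0.486). TPX2, which activates AURKA on the spindle, read 15.46, 15.37 and 15.41 on the control arrays and 15.47, 15.49 and 15.51 on the mimic arrays, a log2 change of 0.07 ± 0.0383 SE that did not pass (adjusted p = 0.308).

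Of 4 chromosomal passenger complex genes 1 rose, 1 fell and 2 did not pass. The catalytic subunit AURKB, which releases faulty attachments, rose: it read 8.47, 8.52 and 8.38 on the control arrays and 8.79, 8.76 and 8.78 on the mimic arrays (log2 change 0.32 ± 0.0519 SE, 1.25-fold higher, adjusted p = 0.0107). CDCA8, called borealin, which targets the complex to centromeres, fell: it read 8.51, 8.36 and 8.32 on the control arrays and 8.02, 7.88 and 7.84 on the mimic arrays (log2 change -0.49 ± 0.0761 SE, 1.4-fold lower, adjusted p = 0.00918). Every mimic array was above every control array for AURKB and below it for CDCA8. Within each array, the AURKB value minus the CDCA8 value was 0.71, 0.83 and 0.88 above its control mean on the mimic arrays and between -0.10 and 0.10 on the control arrays. The scaffold INCENP stood at 0.17 ± 0.053 SE (adjusted p = 0.105) and BIRC5, survivin, at 0.12 ± 0.0467 SE (adjusted p = 0.164). Both had mimic arrays above the control arrays but did not pass.

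**Figure D3:**
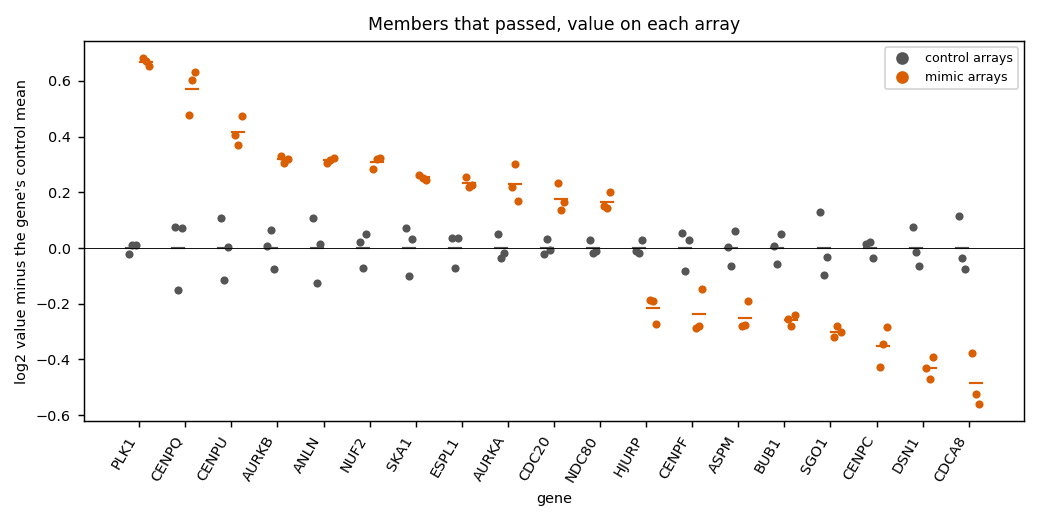
Value on each array for the 19 members that passed, as log2 value minus the gene's control mean (vertical axis), genes ordered by their change, bars marking group means of 3 arrays. The mimic arrays (orange) do not overlap the control arrays (grey) for any of the 19, and the spread of the control arrays reaches 0.1 or more for genes such as CENPQ, SGO1 and ANLN.

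Of 6 measured spindle checkpoint genes, 0 rose, 1 fell and 5 did not pass by limma (at an unadjusted p under 0.05, 0 higher and 4 lower). The median log2 change was -0.17. The share of all genes at an unadjusted p under 0.05, here and below, was not taken. It cannot be under the 18.0% called at the adjusted p, or 40.4% among genes with a mean of at least 8. BUB1, the kinase that places shugoshin and checkpoint proteins at the centromere, fell: it read 13.51, 13.44 and 13.55 on the control arrays and 13.24, 13.22 and 13.26 on the mimic arrays (log2 change -0.26 ± 0.0409 SE, 1.2-fold lower, adjusted p = 0.0096). The highest mimic array was 0.19 below the lowest control array, and the adjusted p was 0.0516 without mimic array 2. TTK, the kinase called MPS1 that starts checkpoint signalling, read 11.67, 11.58 and 11.68 on the control arrays and 11.43, 11.47 and 11.53 on the mimic arrays. MAD2L1, the checkpoint effector that captures CDC20, read 12.76, 12.69 and 12.68 on the control arrays and 12.49, 12.55 and 12.60 on the mimic arrays. ZWILCH, a subunit of the complex that recruits MAD proteins and dynein, read 13.46, 13.39 and 13.39 on the control arrays and 13.16, 13.29 and 13.26 on the mimic arrays. For these genes the mimic arrays all lay below the control arrays, at log2 changes of -0.17, -0.17 and -0.18, without passing (adjusted p = 0.0819, 0.0688 and 0.0642). After median centring MAD2L1 and ZWILCH passed, at adjusted p of 0.0387 and 0.0322, as they did when the filter took out the lowest 50% of transcript clusters (0.046 and 0.0438). The remaining genes were BUB3 at -0.06 ± 0.0375 SE (adjusted p = 0.407), a binding partner of BUB1, and MAD1L1, the receptor of MAD2L1, with a 95% interval of -0.15 to 0.15 on the log2 scale.

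Genes of anaphase onset and sister chromatid cohesion gave 2 rises, 1 fall and 4 that did not pass. CDC20, which activates the anaphase-promoting complex, read 10.81, 10.87 and 10.83 on the control arrays and 11.07, 10.97 and 11.00 on the mimic arrays (log2 change 0.18 ± 0.0432 SE, 1.13-fold higher, adjusted p = 0.0474). Its rise passed in none of the 6 fits that left out 1 array, with adjusted p from 0.0811 to 0.149, nor with median centring (0.0925) or quantile normalization (0.0583). ESPL1, separase, the protease that cuts cohesin, read 6.87, 6.76 and 6.87 on the control arrays and 7.09, 7.05 and 7.06 on the mimic arrays (log2 change 0.23 ± 0.0561 SE, 1.18-fold higher, adjusted p = 0.0449) and likewise passed in none of those 6 fits (adjusted p from 0.0784 to 0.134), nor with median centring (0.0654). SGO1, the shugoshin that shields centromeric cohesin, fell and read 11.11, 10.89 and 10.95 on the control arrays and 10.66, 10.70 and 10.68 on the mimic arrays (log2 change -0.30 ± 0.0635 SE, 1.23-fold lower, adjusted p = 0.0289). Control array 1 was the highest, and leaving out control array 3 gave 0.0795 and leaving out mimic array 1 or 2 or 3 gave 0.0956, 0.0873 or 0.0789 as adjusted p. Its paralogue SGO2 stood at 0.02 ± 0.0621 SE (adjusted p = 0.892), with overlapping groups. Securin, PTTG1, the inhibitor of separase, stood at -0.01 ± 0.0462 SE (adjusted p = 0.899) and UBE2C, the ubiquitin-conjugating enzyme of the anaphase-promoting complex, at -0.09 ± 0.046 SE (adjusted p = 0.296). CDCA5, sororin, which stabilises cohesin, read 7.39, 7.39 and 7.44 on the control arrays and 7.71, 7.55 and 7.39 on the mimic arrays, with mimic array 3 at the level of the control arrays (log2 change 0.14 ± 0.0848 SE, adjusted p = 0.376). Its dimmer probe set stood at 0.00.

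At the centromere and inner kinetochore, CENPQ and CENPU rose, CENPC and HJURP fell, and 9 of 13 did not pass. CENPQ, a microtubule-binding subunit of the CENP-O class, read 9.02, 8.79 and 9.01 on the control arrays and 9.42, 9.55 and 9.57 on the mimic arrays (log2 change 0.57 ± 0.0792 SE, 1.49-fold higher, adjusted p = 0.0057). CENPU, a subunit of the same class that docks PLK1 at kinetochores, read 8.81, 8.59 and 8.71 on the control arrays and 9.11, 9.07 and 9.18 on the mimic arrays (log2 change 0.42 ± 0.0684 SE, 1.33-fold higher, adjusted p = 0.0112). Control array 2 was the lowest for both. CENPO, another subunit of the class, read 9.62, 9.63 and 9.63 on the control arrays and 9.49, 9.53 and 9.53 on the mimic arrays and did not pass (log2 change -0.11 ± 0.0396 SE, adjusted p = 0.147). Set against CENPO on the same array, CENPQ stood 0.62, 0.70 and 0.73 above its control mean on the mimic arrays, and CENPU 0.55, 0.46 and 0.57.

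CENPC, which links CENPA nucleosomes to the outer kinetochore, read 9.43, 9.44 and 9.38 on the control arrays and 8.99, 9.07 and 9.13 on the mimic arrays (log2 change -0.35 ± 0.0521 SE, 1.28-fold lower, adjusted p = 0.00741). HJURP, the chaperone that deposits CENPA, read 11.20, 11.19 and 11.24 on the control arrays and 11.02, 11.02 and 10.93 on the mimic arrays (log2 change -0.22 ± 0.0425 SE, 1.16-fold lower, adjusted p = 0.0217), and its adjusted p was between 0.052 and 0.091 whichever array was left out. CENPA itself stood at -0.02 ± 0.0422 SE (95% interval -0.12 to 0.08, adjusted p = 0.865). The subunits of the CENP-H, CENP-I, CENP-K and CENP-M class stood at 0.08 for CENPH, -0.11 for CENPI, -0.00 for CENPK and -0.26 for CENPM, with adjusted p from 0.0936 for CENPM to 0.997 for CENPK. CENPM had all mimic arrays, at 6.93 to 7.03, below all control arrays, at 7.12 to 7.37. The CENPA-binding pair CENPL and CENPN stood at 0.07 and -0.05, and the histone-fold subunit CENPW at 0.01 (adjusted p = 0.52, 0.588 and 0.954).

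In the outer kinetochore, NUF2, NDC80 and SKA1 rose, DSN1 and CENPF fell, and 8 of 13 did not pass. The NDC80 complex is a rod whose microtubule-binding end is the dimer of NDC80 and NUF2 and whose kinetochore end is the dimer of SPC24 and SPC25. NUF2 read 11.22, 11.13 and 11.25 on the control arrays and 11.48, 11.52 and 11.52 on the mimic arrays (log2 change 0.31 ± 0.0463 SE, 1.24-fold higher, adjusted p = 0.00784). NDC80 read 11.67, 11.62 and 11.63 on the control arrays and 11.79, 11.78 and 11.84 on the mimic arrays (log2 change 0.17 ± 0.0383 SE, 1.12-fold higher, adjusted p = 0.0395). The groups lay apart for both, but NDC80 passed in none of the fits that left out 1 array (adjusted p from 0.0593 to 0.137), nor with median centring (0.0812) or quantile normalization (0.0554). SPC24 stood at 0.00 ± 0.0421 SE (95% interval -0.10 to 0.10) and SPC25 at 0.05 ± 0.0464 SE (95% interval -0.06 to 0.16), with adjusted p of 0.976 and 0.579. The value of NUF2 minus that of SPC24 stood 0.25, 0.33 and 0.33 above its control mean on the mimic arrays and at 0.06, -0.13 and 0.06 on the control arrays.

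DSN1, a subunit of the MIS12 complex that anchors to CENPA chromatin, read 11.88, 11.79 and 11.74 on the control arrays and 11.38, 11.34 and 11.42 on the mimic arrays (log2 change -0.43 ± 0.0497 SE, 1.35-fold lower, adjusted p = 0.00286). This fall was clear of the control spread, whereas MIS12 stood at 0.01 ± 0.0613 SE (adjusted p = 0.923). Another subunit, NSL1, which is not among the 60, read 9.96, 9.89 and 9.91 on the control arrays and 9.53, 9.64 and 9.58 on the mimic arrays and fell as well (log2 change -0.34 ± 0.0471 SE, 1.27-fold lower, adjusted p = 0.00559). SKA1, of the complex that follows microtubule ends, read 8.13, 7.95 and 8.09 on the control arrays and 8.32, 8.31 and 8.30 on the mimic arrays (log2 change 0.25 ± 0.0587 SE, 1.19-fold higher, adjusted p = 0.04). It passed without control array 1 (adjusted p = 0.0462) but not without any other array, at adjusted p of up to 0.124, nor with median centring (0.0517). SKA2 at -0.05 and SKA3 at 0.04 did not pass (adjusted p = 0.587 and 0.816).

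CENPF, a large protein of the outermost kinetochore that binds dynein regulators, read 13.77, 13.63 and 13.74 on the control arrays and 13.43, 13.44 and 13.57 on the mimic arrays (log2 change -0.24 ± 0.0582 SE, 1.18-fold lower, adjusted p = 0.0479). Its call was lost in several smaller fits: leaving out control array 1 or 3 gave 0.113 or 0.154 and leaving out mimic array 1 or 2 gave 0.147 or 0.159 as adjusted p. CENPE, the kinesin that carries chromosomes to the spindle equator, read 13.26, 13.03 and 13.29 on the control arrays and 12.85, 12.96 and 13.05 on the mimic arrays. One of its mimic arrays lay above the lowest control array, control array 2, and it did not pass (log2 change -0.25 ± 0.0855 SE, adjusted p = 0.135), although it did without control array 2 (adjusted p = 0.0444). The checkpoint scaffold KNL1 at -0.14 ± 0.0519 SE and its partner ZWINT at 0.08 ± 0.0575 SE did not pass (adjusted p = 0.164 and 0.45).

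**Figure D4:**
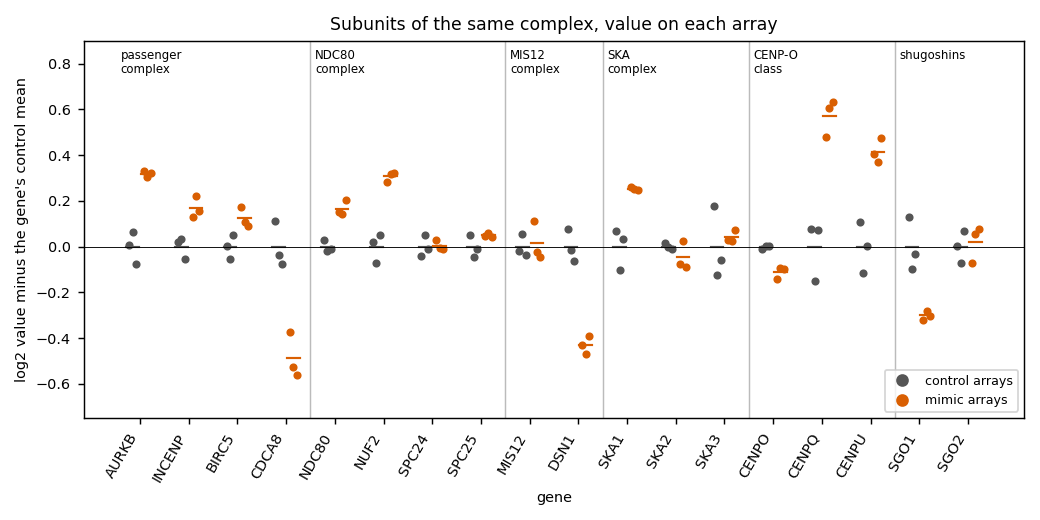
Value on each array for subunits of 5 complexes and for the shugoshins, as log2 value minus the gene's control mean (vertical axis), bars marking group means of 3 arrays. Within a complex, some subunits move apart: AURKB is above and CDCA8 below its control arrays, NUF2 is above them while SPC24 overlaps them, and CENPQ and CENPU are above them while CENPO is slightly below.

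Spindle and cytokinesis genes gave 1 rise, 1 fall and 6 of 8 that did not pass, with a median log2 change of 0.03. ANLN, the scaffold of the contractile ring, read 15.78, 15.55 and 15.69 on the control arrays and 15.98, 15.99 and 15.99 on the mimic arrays (log2 change 0.32 ± 0.0618 SE, 1.24-fold higher, adjusted p = 0.0217). Control array 2 was the lowest, and leaving out control array 3 gave 0.074 and leaving out mimic array 1 or 2 or 3 gave 0.0711, 0.0814 or 0.0662 as adjusted p, which was 0.0566 after quantile normalization. ASPM, which focuses spindle poles, read 13.97, 13.90 and 14.02 on the control arrays and 13.68, 13.69 and 13.77 on the mimic arrays (log2 change -0.25 ± 0.0485 SE, 1.19-fold lower, adjusted p = 0.0211), and leaving out control array 1 or 3 gave 0.0552 or 0.0814 and leaving out mimic array 1 or 2 gave 0.0785 or 0.09 as adjusted p. ECT2, the exchange factor that activates RHOA for cytokinesis, stood at 0.01 ± 0.0533 SE (adjusted p = 0.913) and the midzone bundler PRC1 at 0.04 ± 0.0425 SE (adjusted p = 0.657). DLGAP5, which stabilises kinetochore fibres, read 14.32, 14.28 and 14.31 on the control arrays and 14.33, 14.33 and 14.33 on the mimic arrays, a log2 change of 0.02 ± 0.0329 SE with a 95% interval of -0.05 to 0.10. The microtubule-binding proteins HMMR and NUSAP1 stood at 0.06 and -0.09 (adjusted p = 0.543 and 0.286).

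Of the 3 mitotic chromosome genes 0 passed by limma, and at an unadjusted p under 0.05 there were 0 higher and 0 lower. MKI67, which coats mitotic chromosomes and is the antigen of the Ki-67 proliferation stain, read 13.97, 13.84 and 13.87 on the control arrays and 13.81, 13.85 and 13.82 on the mimic arrays (log2 change -0.07 ± 0.0453 SE, 95% interval -0.18 to 0.04, adjusted p = 0.421). TOP2A, the topoisomerase that untangles sister chromatids, read 15.61, 15.42 and 15.53 on the control arrays and 15.59, 15.62 and 15.59 on the mimic arrays (log2 change 0.08 ± 0.0542 SE, 95% interval -0.05 to 0.21, adjusted p = 0.466). Control array 2 was the lowest for TOP2A. CDCA2, which brings phosphatase to chromatin, stood at 0.03 ± 0.0578 SE (adjusted p = 0.797).

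Across the 8 groups, the median log2 change was 0.16 for mitotic kinases and entry factors, 0.15 for the passenger complex, -0.17 for the checkpoint, 0.02 for anaphase onset and cohesion, -0.02 for the inner kinetochore, 0.01 for the outer kinetochore and 0.03 both for spindle and cytokinesis and for mitotic chromosome genes. These medians describe lists of 3 to 13 genes and were not tested against each other. After median centring, anaphase onset and cohesion went to -0.01 and the outer kinetochore to -0.02, and after quantile normalization spindle and cytokinesis went to -0.01. The medians of the checkpoint, the kinases and the passenger complex kept their sign after median centring (-0.20, 0.13 and 0.11) and quantile normalization (-0.18, 0.17 and 0.17). Only those settings could have changed it. Most genes of these groups have mimic and control arrays that do not overlap, so leaving out an array cannot reverse these medians. The remaining settings leave their log2 changes as they were. Over all 13 other fits the medians ran from -0.20 to -0.14, from 0.13 to 0.18 and from 0.11 to 0.17.

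Other genes of mitosis that are not among the 60 were read from 6 further lists of 82 genes, of which 77 were measured. Of these, 8 rose, 14 fell and 55 did not pass, with a median log2 change of 0.00. The 28.6% called lie above the 18.0% of all genes but below the 40.4% of genes with a mean of at least 8. Most of the 77 measured are at that level. Among the cyclin B kinase and its regulators, the phosphatase CDC25B, which activates CDK1, read 6.96, 6.95 and 6.98 on the control arrays and 7.52, 7.60 and 7.55 on the mimic arrays and rose (log2 change 0.59 ± 0.0505 SE, 1.51-fold higher, adjusted p = 0.000974). BORA, the cofactor with which AURKA activates PLK1, read 10.82, 10.69 and 10.75 on the control arrays and 10.10, 10.27 and 10.17 on the mimic arrays and fell (log2 change -0.57 ± 0.0604 SE, 1.48-fold lower, adjusted p = 0.00212). ARPP19, the phosphatase inhibitor that sustains mitosis, fell (log2 change -0.46 ± 0.0614 SE, 1.38-fold lower, adjusted p = 0.0048), and WEE1, the kinase that restrains CDK1, rose (log2 change 0.25 ± 0.0517 SE, 1.19-fold higher, adjusted p = 0.0261). WEE1 passed only without control array 3 (adjusted p = 0.0269) among the fits that left out 1 array, the others giving 0.0593 to 0.094. CDK1 stood at -0.16, CCNB1 at -0.03 and CCNB2 at 0.01, and none of them passed (adjusted p = 0.15, 0.714 and 0.919).

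Of 16 measured genes of the anaphase-promoting complex, 1 rose and 6 fell, with a median of -0.11. The subunit CDC26 fell (log2 change -0.56 ± 0.0856 SE, 1.47-fold lower, adjusted p = 0.00865), as did ANAPC4 (log2 change -0.47 ± 0.0499 SE, 1.38-fold lower, adjusted p = 0.00214), ANAPC5 by 0.40 on the log2 scale, and FBXO5, an inhibitor of the complex, by 0.43. ANAPC7 at -0.21 and CDC16 at -0.19 passed in the full data (adjusted p = 0.0326 and 0.0288) but in none of the 6 fits without 1 array (adjusted p from 0.0623 to 0.117 and from 0.0521 to 0.112). FBXO5 was lost without control array 1, control array 3, mimic array 1 or mimic array 2 (adjusted p = 0.0549, 0.0585, 0.07 and 0.0737). FZR1, the activator that replaces CDC20 at mitotic exit, rose (log2 change 0.31 ± 0.0721 SE, 1.24-fold higher, adjusted p = 0.0382), passing only without control array 1 (adjusted p = 0.0412) among those fits, the others reaching 0.133. Of 12 further kinetochore genes 0 rose by limma (2 at an unadjusted p under 0.05), while NSL1 and the checkpoint subunit KNTC1 fell. KNTC1, a partner of ZWILCH, stood at -0.20 ± 0.0392 SE (adjusted p = 0.0229) and passed only without mimic array 3 among those fits (adjusted p = 0.0307, the others reaching 0.097). ZW10, a further partner of ZWILCH, went the other way, at 0.14 ± 0.0498 SE, as did SPDL1, at 0.14 ± 0.044 SE. Their mimic arrays all lay above their control arrays, but neither passed (adjusted p = 0.134 and 0.112).

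Condensin, which compacts mitotic chromosomes, had 2 rises and 0 falls among 8 by limma (0 lower at an unadjusted p under 0.05), NCAPD2 (log2 change 0.27 ± 0.0435 SE, 1.21-fold higher, adjusted p = 0.0101) and NCAPD3 at 0.15. NCAPD3 passed in none of the fits without 1 array (adjusted p from 0.069 to 0.148), nor with median centring (0.0651). Of 11 cohesin genes, the acetyltransferase ESCO1 fell (log2 change -0.57 ± 0.061 SE, 1.48-fold lower, adjusted p = 0.00226) and the loader subunit MAU2 rose by 0.26, which passed in none of those fits (adjusted p from 0.061 to 0.137) nor with median centring (0.0548). Among 15 transcription factors of mitotic genes, 2 rose and 3 fell. FOXM1, an activator of late cell cycle genes, read 10.00, 9.85 and 9.88 on the control arrays and 10.28, 10.25 and 10.12 on the mimic arrays and rose (log2 change 0.30 ± 0.0635 SE, 1.23-fold higher, adjusted p = 0.0276). Here leaving out control array 2 or 3 gave 0.0838 or 0.1 and leaving out mimic array 1 or 2 gave 0.0936 or 0.104 as adjusted p. LIN54, the DNA-binding subunit of the DREAM complex, rose (log2 change 0.24 ± 0.0406 SE, 1.18-fold higher, adjusted p = 0.012) and was lost without mimic array 2 (adjusted p = 0.0579) and when its probe sets were averaged (adjusted p = 0.0522). Its dimmer probe set stood at 0.39 ± 0.139 SE and did not pass (adjusted p = 0.148). The DREAM subunits RBL2, at 11.66, 11.61 and 11.62 on the control arrays and 11.07, 11.09 and 11.09 on the mimic arrays, and E2F4 both fell (RBL2 log2 change -0.55 ± 0.0365 SE, 1.46-fold lower, adjusted p = 0.000407, and E2F4 log2 change -0.43 ± 0.0621 SE, 1.35-fold lower, adjusted p = 0.00642). NFYA, a subunit of the factor that binds CCAAT boxes, read 8.88, 8.84 and 8.95 on the control arrays and 8.08, 8.26 and 8.31 on the mimic arrays and fell (log2 change -0.67 ± 0.0722 SE, 1.59-fold lower, adjusted p = 0.00223), while MYBL2 stood at 0.19 and did not pass (adjusted p = 0.0847).

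**Figure D5:**
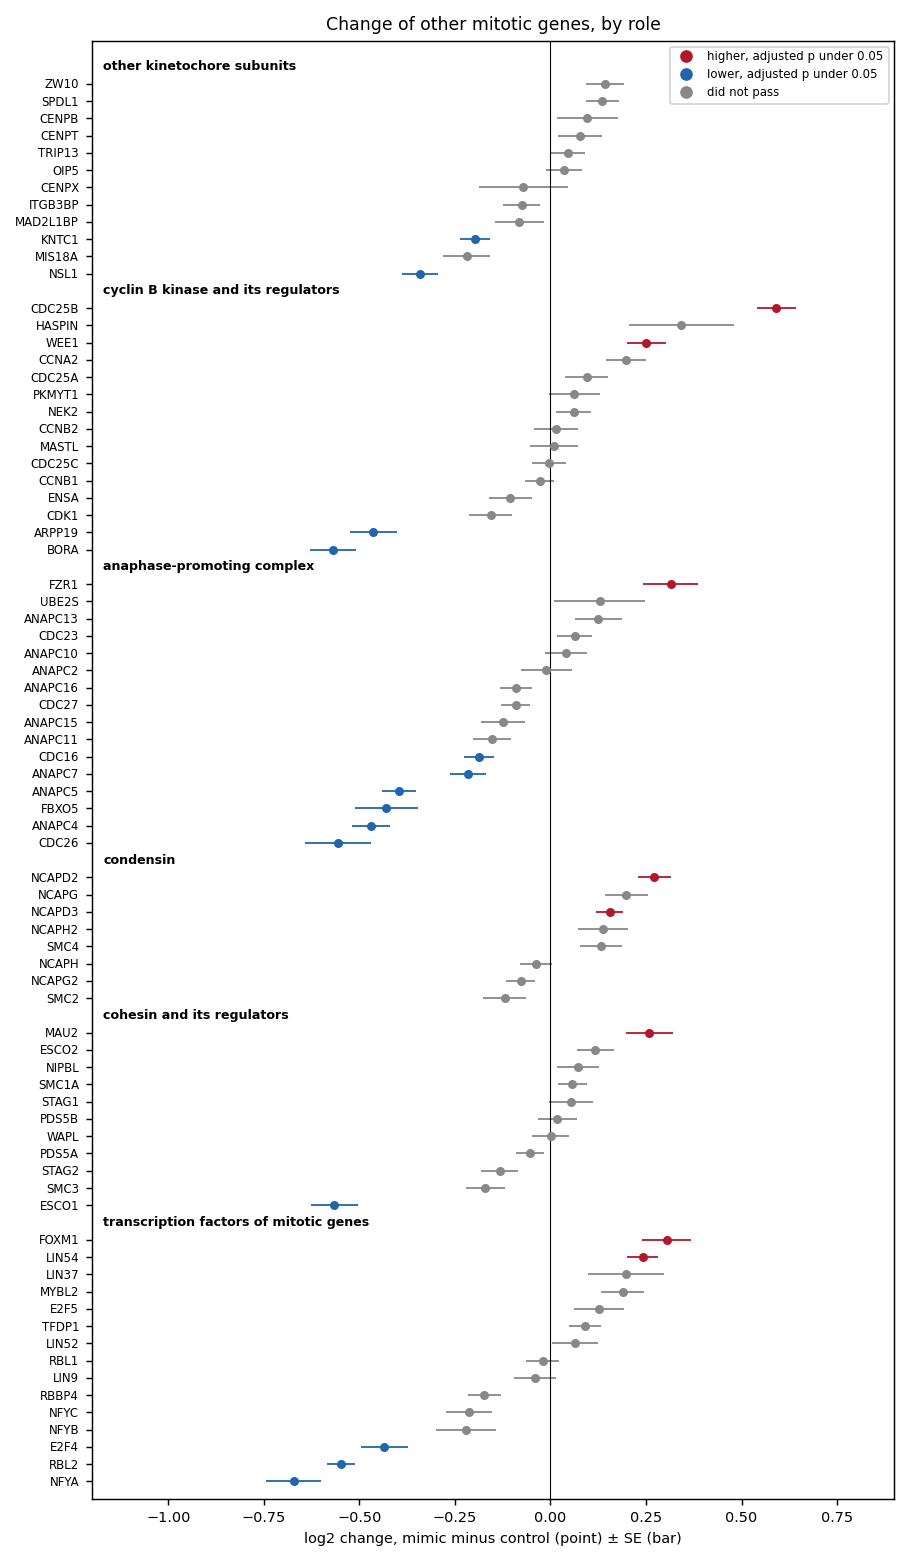
Log2 change, mimic minus control, with its standard error, for 77 measured mitotic genes outside the list of 60, in 6 role groups, 3 arrays per group. CDC25B stands farthest to the right, and NFYA, BORA, ESCO1 and CDC26 farthest to the left.

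Promoters were read because the members share regulators that the choice of the list did not use. RefSeq promoter windows of GRCh38.p14, from 250 bases before to 50 after each start site, were at hand for 49 of the 60 members. The motif TTTGAA, the usual form of the cell cycle homology region that LIN54 binds, was in a window of 30 of these members on either strand, or 61.2%, against 18.2% of 27305 genes in the table. CCAAT, on either strand, was in 37 of the 49, or 75.5%, against 39.7% of all genes, and 46.9% held both against 8.37%. With the variant TTTAAA counted too, 67.3% of members held a form of the first motif, against 27.9% of all genes. TTTGAA was in 7 of 10 members that rose, 5 of 8 that fell and 17 of 29 that did not pass. CCAAT was in 6 of 10, 7 of 8 and 23 of 29. Both motifs were in 3 of 10, 5 of 8 and 15 of 29. The other two of the 49 were not measured.

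The 150 bases before the start site are printed for 6 of the 19 members called, 3 that rose (PLK1, CENPQ and ANLN) and 3 that fell (CDCA8, HJURP and CENPC). They are examples and not a ranking. Capitals mark TTTGAA and its variant TTTAAA, together with the box CCAAT, on either strand, and in CDCA8 the motif TTTGAA shares a base with a reversed CCAAT.
PLK1, chr16:23678739-23678888, strand +: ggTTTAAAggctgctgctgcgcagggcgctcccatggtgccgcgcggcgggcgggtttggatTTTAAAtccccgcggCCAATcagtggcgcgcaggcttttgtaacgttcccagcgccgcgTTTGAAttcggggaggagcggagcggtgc
CENPQ, chr6:49463220-49463369, strand +: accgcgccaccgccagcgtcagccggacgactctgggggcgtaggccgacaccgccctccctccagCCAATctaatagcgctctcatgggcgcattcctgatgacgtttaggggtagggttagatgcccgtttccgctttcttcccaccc
ANLN, chr7:36389712-36389861, strand +: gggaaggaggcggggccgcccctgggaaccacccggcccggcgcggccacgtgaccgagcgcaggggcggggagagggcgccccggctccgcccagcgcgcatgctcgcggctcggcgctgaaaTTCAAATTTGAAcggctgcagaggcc
CDCA8, chr1:37692366-37692515, strand +: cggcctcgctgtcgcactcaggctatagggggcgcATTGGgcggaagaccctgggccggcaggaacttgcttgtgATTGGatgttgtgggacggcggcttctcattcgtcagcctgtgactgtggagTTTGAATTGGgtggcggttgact
HJURP, chr2:233854536-233854685, strand -: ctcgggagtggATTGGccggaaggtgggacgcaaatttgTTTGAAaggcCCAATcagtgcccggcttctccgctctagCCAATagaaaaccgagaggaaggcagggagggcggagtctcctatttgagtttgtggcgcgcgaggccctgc
CENPC, chr4:67545504-67545653, strand -: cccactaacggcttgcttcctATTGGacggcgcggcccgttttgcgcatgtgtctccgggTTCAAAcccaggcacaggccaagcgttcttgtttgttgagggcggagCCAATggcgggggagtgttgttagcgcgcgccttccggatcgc

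PLK1, which rose, and CDCA8, HJURP and CENPC, which fell, all held both TTTGAA and CCAAT. In these 150 bases ANLN held TTTGAA in both orientations side by side and no CCAAT, and CENPQ held CCAAT alone. Among members that fell and are not printed, the windows of BUB1 and SGO1 held CCAAT without TTTGAA, and that of DSN1 held neither. The motifs are matches of letters and are given as a description.

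Several members that were called share a promoter region with a gene on the other strand. The start sites of CENPQ and of MMUT, a mitochondrial mutase, lie 117 bases apart head to head, and MMUT changed the opposite way, at -0.39 ± 0.0667 SE (adjusted p = 0.0131) while CENPQ stood at 0.57. METTL4, 52 bases from NDC80, stood at 0.14 and AIRIM, 274 bases from CDCA8, at 0.13, and neither passed (adjusted p = 0.182 and 0.274). RGS5, 219 bases from NUF2, stood at -0.08 and did not pass either (adjusted p = 0.598). RefSeq also lists pseudogenes named after some members called, among them AURKA, AURKB, BUB1, SGO1, CENPC and CENPU, whose signal on any shared probe cannot be told apart. CDC20P1, the pseudogene of CDC20 with a probe set of its own, stood at 0.40 (adjusted p = 0.116).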

How the data were processed

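Values in the authors' deposited table range from 1.62 to 19.9 and were taken as log2, which is inferred from that range. MAS5 is the only tool in the submitters' processing notes, without role or version. Summarization, background correction and the build behind the values are not stated there or in the labels. Each array used 100 ng of total RNA, per the labels' protocols. Precision is limited by the number of arrays.

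Of 70523 probe sets, 2995 control probe sets and the 25% of 67528 transcript clusters with the lowest mean were left out, and 50646 were tested. Symbols came from GEO's platform annotation, by which 23781 transcript clusters have 1 symbol and 1543 several. Groups came from sample titles. The test was limma 3.58.1 in R 4.3.3 with a mean-variance trend, with two-sided p-values adjusted by Benjamini-Hochberg across the tested clusters and a threshold of 0.05. An exact permutation test of 3 against 3 cannot go below 0.1 and was not used. The fit was first tested on simulated data, with 50 clusters changed at each size. It recovered 42% of changes of -0.5 and 46% of changes of 0.5, and 82% and 90% of changes of -1 and 1. It called 7 unchanged clusters. Smaller changes were not simulated. Many more clusters passed in the data than were changed in the simulation, where the adjusted threshold is therefore stricter. The changed clusters were also drawn without regard to level. These shares thus do not give the power for the members.

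Members and lists were chosen with earlier results of these data known. All 60 members could be named, and of each further list the 2 highest and 2 lowest that passed. Other genes of those lists, and MMUT, METTL4, AIRIM, RGS5 and CDC20P1, were named after their values were seen. Alternatives were median centring, quantile normalization, other filters, no trend, averaged probe sets, each array left out and a replicate block. Figures used matplotlib 3.10.9 under Python 3.11.15.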

Additional observations from a re-analysis of the deposited data

How the results depend on the processing

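No called member changed sign in the 13 other fits, and the 28 changes of sign were all of members that passed in neither fit. For called members only median centring and quantile normalization could have changed a sign. Their groups do not overlap, so leaving out 1 array cannot reverse them, and the remaining settings leave their log2 change as it was. Averaging probe sets changed no member's call, but ended that of LIN54 among the further mitotic genes (adjusted p = 0.0522). Members higher (11) and lower (8) numbered 7 and 10 with median centring, which moved their median log2 change from 0.0113 to -0.0196. They numbered 7 and 7 without the filter, 6 and 4 without the variance trend, and 5 to 8 and 3 to 8 with 1 array left out. The further mitotic genes, 8 higher, were 4 higher without the trend and 2 to 6 with 1 array left out, with a median of -0.0304 after centring and of -0.0172 to 0.0146 with 1 array left out. Over all genes, 1358 higher and 2034 lower became 833 to 1151 and 1272 to 1559 with 1 array left out, lowest without mimic array 2 (833 and 1272) and without control array 3 (905 and 1288). List medians under 0.05 in size changed sign in at least 1 fit, except that of the inner kinetochore. That of the checkpoint was -0.197 after centring. Anaphase onset and cohesion went to -0.0107 after centring, 0.0436 with quantile normalization and -0.00772 to 0.0653 with 1 array left out. The inner kinetochore went to -0.0476 after centring and -0.0432 to -0.0052 with 1 array left out, and spindle and cytokinesis to -0.00766 with quantile normalization. With the replicate number as a block there were 6 members higher and 5 lower, and 4 of the further genes higher. The causes were not tested, beside the smaller sample of the fits without 1 array. Deviations of samples with the same number correlated at 0.14, -0.05 and 0.18. Mimic samples 1 and 3 correlated best with the control sample of the same number, and mimic sample 2 with control sample 1 (0.12). Such weak and uneven values do not settle whether the numbers pair samples. The main fit did not pair them, and the fit with the number as a block did.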
